A study of Mus musculus with 7 samples.

Results

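The extracellular matrix glycoproteins are secreted adhesive and scaffolding proteins other than collagens, laminins and proteoglycans. The set comprised 48 genes in 13 families, chosen by gene symbol as the tenascins, fibronectin and vitronectin, thrombospondins, small matricellular proteins, matrilins, fibrillins and elastin, fibulins, latent TGF-β binding proteins (LTBPs), EMILINs, olfactomedin-like proteins, the pair *Mfge8* and *Edil3*, the Fras1 and Frem proteins, and *Npnt*, *Nell1*, *Nell2* and *Egflam*. All 48 were found among the 38124 genes of the count table. Their mRNA was measured by RNA-Seq in High RFP cells, the sorted fraction with the strongest RFP fluorescence, from neocortex of mouse embryos of the *Tis21*-CreERT2 line, in which tamoxifen activates a Cre recombinase in progenitors that express *Tis21*. All embryos received tamoxifen and were electroporated at embryonic day (E) 13.5 and collected 48 hr later, at E15.5. The groups differed in the construct, which was the control construct in 3 libraries (Control 1, 2 and 4, as the labels number them) and the conditional Sox9 construct in 4 libraries (Sox9 1 to 4), and Cre turns on nuclear RFP from either one. The cells were embryonic neural progenitors according to the labels, and in each sort the cortices of several embryos were pooled according to the methods.

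Matrix glycoproteins surround neural progenitors and signal to them through receptors such as integrins, CD44 and receptor-type phosphatases. Tenascins and matricellular proteins modulate adhesion rather than build fibres. Fibrillins, elastin, fibulins and EMILINs form microfibrils and elastic fibres, on which the LTBPs hold latent TGF-β. Radial glia, the stem cells of the neocortex, are a known source of tenascin C, whereas fibrillins, fibulins and elastin are best known from vessel walls and connective tissue.

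The control libraries held from 10465562 to 12907778 counted reads and the Sox9-labelled libraries from 4429704 to 10520214. Of the latter, only Sox9 2 was as deep as a control library. Levels are given as CPM, counts relative to library size after TMM scaling, and log2 fold changes compare Sox9-labelled libraries with control. Of the 48 genes, 41 passed the filter on low counts and entered edgeR's quasi-likelihood test, within a table of 16522 genes. Calls required an adjusted p under 0.01 (Benjamini-Hochberg, over the whole table). *Sox9* itself had 362, 1026 and 668 counts in control and 370, 435, 277 and 177 counts in the Sox9-labelled libraries, that is 63.9 ± 27.5 CPM (SD, n = 3) and 40.0 ± 8.33 CPM (SD, n = 4). Its mRNA was therefore not higher in the Sox9-labelled libraries (log2 fold change -0.68, standard error 0.25, adjusted p = 0.0493 with edgeR), and without Control 1 it was called lower (-0.99, adjusted p = 0.0028). Without any other single library it was not called (-0.79 without Sox9 1 to -0.37 without Control 2, adjusted p from 0.041 to 0.289 with edgeR), cyclic loess with limma-trend gave -0.38 (adjusted p = 0.40), and edgeR without a filter called it lower (-0.78, adjusted p = 7.71e-05). The group names used here refer to the labels. Reads of the construct and of the endogenous gene cannot be told apart in gene counts. Against the labelled cell type, 7 neuronal markers summed to between 11464 and 15658 CPM and 9 radial glia markers to between 299 and 1164 CPM over all libraries, so neuronal mRNA was present in every sorted sample.

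The mRNAs of 12 matrix glycoproteins were called different between the groups, 8 of them higher and 4 lower under the Sox9 label, and 29 were not called. The 4 lower ones were *Tnc*, *Mfge8*, *Thbs3* and *Sparcl1*, and the 8 higher ones were *Olfml2a*, *Ltbp2*, *Matn3*, *Tnxb*, *Matn4*, *Npnt*, *Emilin2* and *Efemp1*. The lower group consisted of abundant mRNAs, whereas the higher ones were rare in control, with at most 2.54 CPM in any control library. Over all 14267 protein-coding genes tested, 9.96% were called higher and 3.88% lower. The corresponding shares of the matrix glycoproteins tested were 19.5% and 9.76%. Their median log2 fold change was 0.34, against -0.06 for all protein-coding genes tested, and became 0.63 without Control 1, 0.57 without Control 2 and 0.78 without Control 4. The 8 higher calls became 5 without Control 1, Control 2 or Sox9 1, and the 4 lower calls became 2 without Control 2, Control 4 or any 1 of the Sox9-labelled libraries. In such sorted samples, fewer cells of a type and less mRNA per cell cannot be told apart.

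Direction followed the level of expression, among the matrix glycoproteins and among all genes. Below an average of 8 CPM (3 on the log2 scale), 26 members had a median log2 fold change of 1.34, with 8 called higher and 0 lower. There, 2 were lower at an unadjusted p under 0.05 with edgeR, DESeq2 called 1 lower, and cyclic loess normalization with limma-trend called 2 lower. All protein-coding genes of that band showed a median of 1.00, and 22.1% of them were called higher and 0.807% lower. At or above 8 CPM, the median over 15 members was -0.45, with 0 called higher and 4 called lower. Of the 15, 2 were higher at an unadjusted p under 0.05 with edgeR, 1 was called higher by DESeq2 and 0 by cyclic loess with limma-trend. All protein-coding genes of this upper band had a median of -0.20, and 2.15% were called higher and 5.85% lower. The share of members called higher in the lower band was 30.8%, and the share called lower in the upper band was 26.7%.

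The filter bears on these counts. All 8 members called higher belonged to 16 members that passed the filter with fewer than 3 control libraries above its minimum of 0.956 CPM. All of the 16 but *Spp1*, which had 2 libraries of each group above it, passed through the Sox9-labelled libraries. The median log2 fold change of the 16 was 2.30. The other 25 members passed in 3 control libraries, had a median of -0.11 and included the 4 called lower. In CPM, every Sox9-labelled library lay above every control library for 16 members and below every control library for 6, and the groups overlapped for the other 19. Over all protein-coding genes tested these patterns were found for 19.8% and 18.4%. Under cyclic loess normalization, which fits the level-dependent shift between libraries, 2 members were called higher (*Olfml2a* and *Npnt*) and 4 lower (*Tnc*, *Mfge8*, *Thbs1* and *Smoc1*), where 2.07% and 1.67% of all protein-coding genes were called, and the median of the members was 0.01. The other 8 calls were lost under it, with log2 fold changes of 1.68 for *Matn3*, 1.51 for *Matn4*, 1.505 for *Ltbp2*, 0.88 for *Tnxb*, 0.81 for *Efemp1*, 0.48 for *Emilin2*, -0.51 for *Thbs3* and -0.48 for *Sparcl1*, and adjusted p-values from limma between 0.0248 (*Matn4*) and 0.585 (*Emilin2*).

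**Figure D1:**
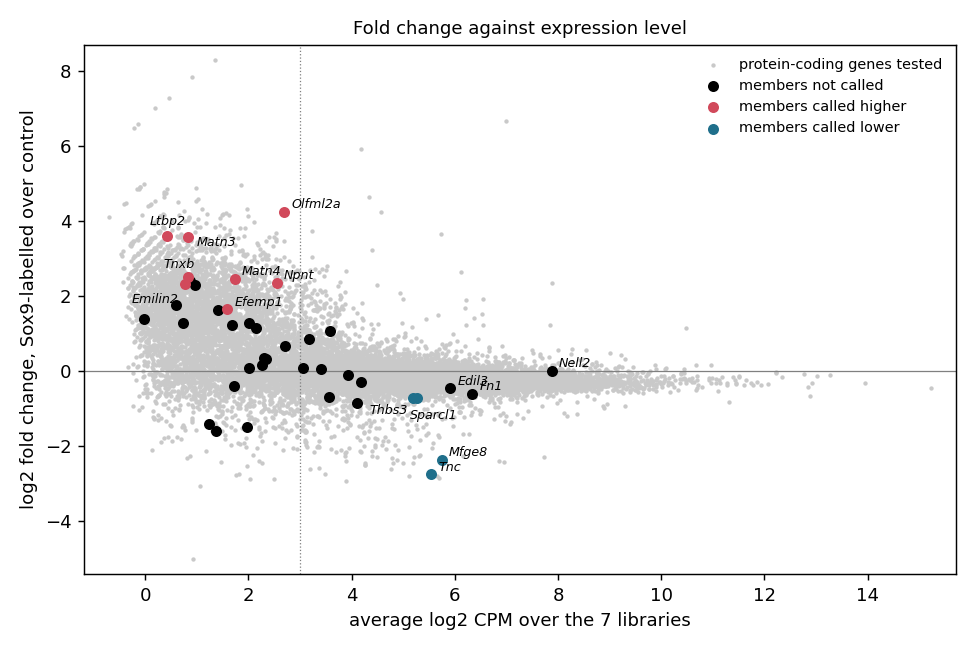
Log2 fold change (Sox9-labelled libraries over control, y axis) against average log2 CPM over the 7 libraries (x axis) for the protein-coding genes tested (grey) and the 41 matrix glycoproteins tested, with 8 called higher in red, 4 called lower in blue and 29 not called in black. The dotted line at 3 separates the bands, and the members called higher lie to its left and those called lower to its right.

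Tenascin C (*Tnc*, ENSMUSG00000028364), a large oligomeric glycoprotein of the stem cell niche, showed the largest decrease of the 41 with edgeR. The gene spans 63959785 to 64047015 of chromosome 4 (mm10, reverse strand). Its mRNA was at 41.7, 129 and 97.0 CPM in control and at 11.4, 11.2, 14.4 and 16.6 CPM in the Sox9-labelled libraries. Every control library was above every Sox9-labelled library, and Control 1 was the lowest of the controls. This gave a log2 fold change of -2.75 ± 0.29 (SE, adjusted p = 5.07e-05 with edgeR), a 6.73-fold lower level.

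*Mfge8* (ENSMUSG00000030605; chromosome 7, 79133768 to 79149060, reverse strand) encodes lactadherin, which bridges phosphatidylserine on dying cells to integrins of phagocytes. Its levels were 49.9, 129.9 and 115 CPM in control and 19.2, 20.6, 23.5 and 12.2 CPM in the Sox9-labelled libraries. As for *Tnc*, Control 1 was the lowest control and the groups did not overlap. This gave a log2 fold change of -2.36 ± 0.27 (SE, adjusted p = 9.29e-05 with edgeR). Its relative *Edil3*, a ligand of integrins, was at 75.1, 57.7 and 79.6 CPM in control and at 40.1, 49.3, 60.8 and 56.6 CPM in the Sox9-labelled libraries, and the groups overlapped (log2 fold change -0.45, adjusted p = 0.0451 with edgeR).

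The other tenascins behaved differently. *Tnxb* (ENSMUSG00000033327; chromosome 17, 34670535 to 34719815, forward strand), a tenascin of collagen-rich connective tissue, was at 0.287, 0.261 and 0.814 CPM in control and at 4.94, 1.42, 2.24 and 1.89 CPM in the Sox9-labelled libraries. It was called higher (log2 fold change 2.51, standard error 0.61, adjusted p = 0.0077 with edgeR), although on only 3, 3 and 8 control counts, and its log2 fold change was 3.21 without Control 4. The call was lost without Control 1 (adjusted p = 0.0285), Control 2 (0.0332), Sox9 1 (0.0223) or Sox9 3 (0.0145), and under cyclic loess with limma-trend (0.88, adjusted p = 0.268). *Tnr*, a tenascin of perineuronal nets, ranged from 5.47 to 12.1 CPM in control and from 5.92 to 11.3 CPM in the Sox9-labelled libraries (log2 fold change 0.07, adjusted p = 0.882 with edgeR).

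Olfactomedin-like 2A (*Olfml2a*, ENSMUSG00000046618), a secreted glycoprotein with an olfactomedin domain, showed the largest increase of the 41 with edgeR. It spans 38931978 to 38963753 of chromosome 2 (mm10, forward strand). Its mRNA was at 0.382, 0.956 and 0.305 CPM in control and at 17.9, 6.90, 14.6 and 3.57 CPM in the Sox9-labelled libraries. The lowest Sox9-labelled library was above the highest control library, and the 4 Sox9-labelled libraries differed widely among themselves. This gave a log2 fold change of 4.24 ± 0.59 (SE, adjusted p = 0.000306 with edgeR), which was 4.92 without Control 2 and 3.17 under cyclic loess. *Olfml2b* was at 25.2, 17.0 and 17.4 CPM in control and at 14.7, 18.05, 21.1 and 10.7 CPM in the Sox9-labelled libraries. *Olfml3* was at 16.7, 5.56 and 8.44 CPM in control and at 18.3, 3.69, 8.83 and 12.4 CPM in the Sox9-labelled libraries. Neither was called (log2 fold changes -0.28 and 0.05, adjusted p = 0.377 and 0.937 with edgeR), and in both the groups overlapped.

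Nephronectin (*Npnt*, ENSMUSG00000040998; chromosome 3, 132881745 to 132950291, reverse strand) is a basement membrane ligand of the integrin formed by *Itga8* and *Itgb1*. Its mRNA was at 1.62, 1.04 and 2.54 CPM in control and at 9.89, 7.75, 10.8 and 6.71 CPM in the Sox9-labelled libraries. All 4 Sox9-labelled libraries exceeded all control libraries (log2 fold change 2.35, standard error 0.36, adjusted p = 0.000586 with edgeR). *Nell2*, a secreted glycoprotein with EGF repeats that binds the axon guidance receptor Robo3, was at 293, 176 and 232 CPM in control and at 261, 244, 252 and 186 CPM in the Sox9-labelled libraries. The group means were 233 ± 58.4 (SD, n = 3) and 236 ± 33.8 CPM (SD, n = 4), and the log2 fold change was 0.02 with a standard error of 0.16. Its sign turned under 4 of the other settings, with values between -0.07 and 0.29 over all of them apart from those that leave out a library. *Nell1* was at 0.956, 0.608 and 0.102 CPM in control and between 1.80 and 4.81 CPM in the Sox9-labelled libraries and missed the threshold (log2 fold change 2.30, adjusted p = 0.0107 with edgeR). *Egflam*, a partner of dystroglycan, also missed it (2.40, adjusted p = 0.0123 with edgeR) and was called without Sox9 4, its lowest Sox9-labelled library (2.73, adjusted p = 0.0047). Under cyclic loess with limma-trend *Nell1* was at 1.04 (adjusted p = 0.274) and *Egflam* at 0.71 (adjusted p = 0.518).

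**Figure D2:**
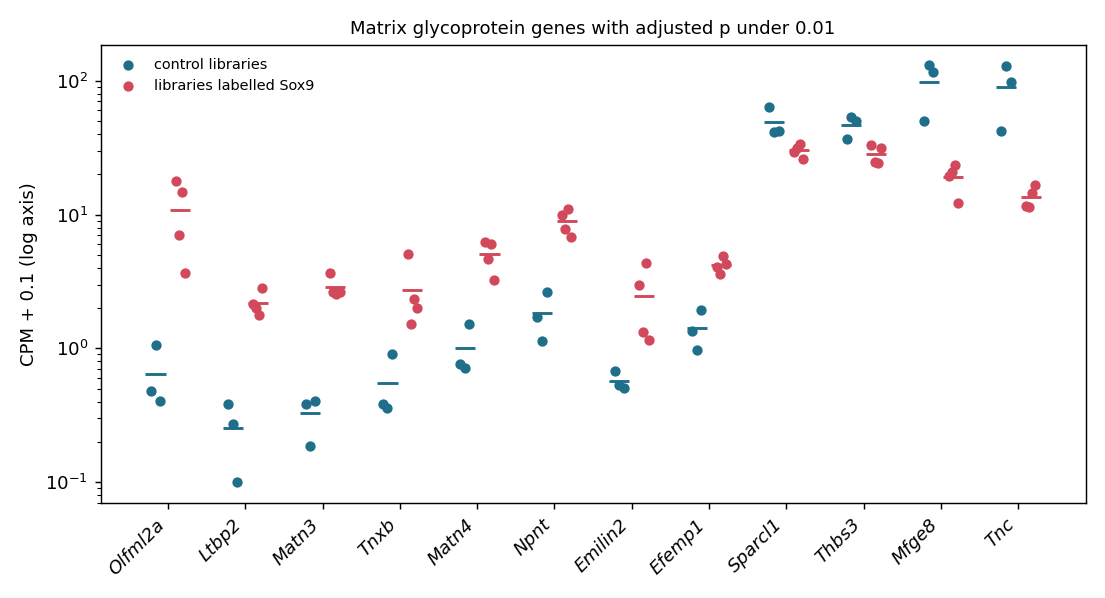
CPM plus 0.1 on a log axis (y axis) in each library for the 12 matrix glycoproteins called, with control in blue, Sox9-labelled libraries in red and horizontal bars at the group means. In CPM after TMM scaling the groups do not overlap in any of the 12, whereas in the deposited FPKM values they overlap for *Thbs3* and *Sparcl1*. *Olfml2a* spreads most among the Sox9-labelled libraries, from 3.57 to 17.9 CPM.

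*Tnc*, *Mfge8* and *Npnt* were called in every alternative analysis and *Olfml2a* in every one in which it was tested, so their promoters are shown. They are the 250 bases before the gene start in RefSeq (GRCm38.p6), 5′ to 3′ on the strand of the gene. Capitals mark matches, on either strand, to the SOX core ACAAT, the GC box GGGCGG and the TATA box TATAAA. *Tnc* spans chr4:64047016-64047265 (reverse strand), *Olfml2a* chr2:38931730-38931979 (forward strand), *Mfge8* chr7:79149061-79149310 (reverse strand) and *Npnt* chr3:132950292-132950541 (reverse strand).
Tnc: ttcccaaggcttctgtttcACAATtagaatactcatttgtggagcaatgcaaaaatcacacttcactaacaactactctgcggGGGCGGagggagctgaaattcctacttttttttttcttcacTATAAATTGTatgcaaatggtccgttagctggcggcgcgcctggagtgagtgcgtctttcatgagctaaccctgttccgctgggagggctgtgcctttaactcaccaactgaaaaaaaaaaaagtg
Olfml2a: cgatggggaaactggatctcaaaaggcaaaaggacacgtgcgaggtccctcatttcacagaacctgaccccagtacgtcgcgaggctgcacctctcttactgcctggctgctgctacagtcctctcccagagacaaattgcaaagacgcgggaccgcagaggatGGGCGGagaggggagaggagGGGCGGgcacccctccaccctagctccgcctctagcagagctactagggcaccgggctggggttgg
Mfge8: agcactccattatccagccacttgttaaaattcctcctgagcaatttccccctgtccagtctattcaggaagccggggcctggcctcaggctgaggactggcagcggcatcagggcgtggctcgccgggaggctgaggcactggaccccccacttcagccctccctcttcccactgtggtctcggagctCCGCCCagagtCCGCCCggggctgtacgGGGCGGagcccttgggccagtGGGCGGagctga
Npnt: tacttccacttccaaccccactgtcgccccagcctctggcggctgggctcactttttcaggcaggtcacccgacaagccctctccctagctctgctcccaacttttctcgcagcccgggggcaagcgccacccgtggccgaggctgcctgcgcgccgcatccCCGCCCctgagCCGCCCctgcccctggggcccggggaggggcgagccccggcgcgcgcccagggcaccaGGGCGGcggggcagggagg

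The *Tnc* promoter held 2 SOX core matches, 1 GC box and 1 TATA box, and its second SOX core and the TATA box share 1 base. It had a GC content of 44.8%, against 61.6% for *Olfml2a*, 65.2% for *Mfge8*, 74.0% for *Npnt* and a median of 52.4% over the 32851 promoters of the table. *Olfml2a* had 2 GC boxes, *Mfge8* 4 and *Npnt* 3, and none of these windows held the SOX core or the TATA box. A promoter was matched for 35 members, as the 1 entry nearest the annotated gene start. The shares of all promoters count every entry of the 32851, so the 2 kinds of share are not on the same basis. The SOX core was found in 3 of the 35 (8.57%) and in 27.7% of all promoters of the same length, the GC box in 18 (51.4%) and in 32.7%, and the TATA box in 5 (14.3%) and in 12.4%. Of the 8 members called higher, 0 had the SOX core, 5 the GC box and 0 the TATA box. Of the 3 members called lower that had a promoter, 1 had the SOX core, 3 the GC box and 1 the TATA box. These matches are descriptions of the sequence, and binding was not measured.

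Fibronectin (*Fn1*), which binds integrins and assembles into fibrils, was at 92.3, 136 and 70.6 CPM in control and at 38.6, 70.3, 93.1 and 60.2 CPM in the Sox9-labelled libraries. The groups overlapped and it was not called (log2 fold change -0.60, standard error 0.25, adjusted p = 0.0739 with edgeR). Vitronectin (*Vtn*), an adhesive glycoprotein of plasma and vessels, ranged from 0.610 to 2.43 CPM in control and from 3.02 to 6.18 CPM in the Sox9-labelled libraries (log2 fold change 1.24, adjusted p = 0.0534 with edgeR).

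Of the thrombospondins, oligomeric calcium-binding glycoproteins, *Thbs3* (ENSMUSG00000028047; chromosome 3, 89215180 to 89226837, forward strand) was called lower. It was at 36.5, 53.1 and 49.5 CPM in control and at 33.1, 24.6, 24.4 and 31.5 CPM in the Sox9-labelled libraries, with a narrow gap between the groups. This gave a log2 fold change of -0.72 ± 0.18 (SE, adjusted p = 0.0081 with edgeR). The deposited FPKM values of *Thbs3* overlapped between the groups, with 2.83 in Control 1 and 3.10 in Sox9 1. Its call held without Control 1 (adjusted p = 0.0041) but not without any other single library (adjusted p from 0.0103 without Sox9 1 to 0.0429 without Control 2). Its exons overlap those of *Mtx1* on the opposite strand, which had 4705 counts over the 7 libraries, and the strand setting of the counting is not given in the sources used here. Exons of 12 members overlap another gene of the table, and 5 of these members were called. *Thbs1*, which binds CD47 and CD36, was at 3.05 to 7.30 CPM in control and at 1.04 to 3.35 CPM in the Sox9-labelled libraries (log2 fold change -1.49, adjusted p = 0.0197 with edgeR). *Comp*, a cartilage member of the family, was at most at 1.37 CPM, and *Thbs2* and *Thbs4* were too low to be tested.

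Of the small matricellular proteins, 6 were tested, 4 of these had log2 fold changes below 0, and 1 was called. *Sparcl1* (ENSMUSG00000029309; chromosome 5, 104079111 to 104113733, reverse strand), known as hevin and involved in synapse formation, was at 63.8, 41.1 and 42.1 CPM in control and at 29.1, 31.4, 33.8 and 25.8 CPM in the Sox9-labelled libraries. It was called lower (log2 fold change -0.70, standard error 0.18, adjusted p = 0.0092 with edgeR). The call was lost without any 1 of the 7 libraries, with adjusted p-values from 0.0101 without Control 2 to 0.052 without Control 1. The deposited FPKM values of *Sparcl1* overlapped between the groups, with 1.059 in Control 2 and 1.066 in Sox9 3. *Sparc*, a collagen-binding protein, was at 14.3, 29.9 and 23.7 CPM in control and at 14.4, 10.1, 18.4 and 6.71 CPM in the Sox9-labelled libraries (log2 fold change -0.85, adjusted p = 0.0435 with edgeR). The BMP modulators *Smoc1* and *Smoc2* did not pass the threshold with edgeR. *Smoc1* was at 2.58 to 3.65 CPM in control and 0.412 to 2.10 CPM in the Sox9-labelled libraries (log2 fold change -1.41, adjusted p = 0.034 with edgeR), and cyclic loess with limma-trend called it lower (-2.57, adjusted p = 0.009). *Smoc2* had a log2 fold change of 1.75 (adjusted p = 0.0429 with edgeR) and was called without Sox9 2 (2.14, adjusted p = 0.0078), but was at 0.01 under cyclic loess. Osteopontin (*Spp1*) varied widely within groups, with 4, 96 and 20 counts in control and 1, 24, 14 and 2 counts in the Sox9-labelled libraries, and its log2 fold change of -1.59 became -0.02 without Control 2. Periostin (*Postn*) was at most 2.79 CPM (log2 fold change 1.29, adjusted p = 0.0805 with edgeR, but 2.06 without Control 1 and 0.02 under cyclic loess), and *Mgp*, an inhibitor of calcification, had at most 1 count in any library.

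Matrilins are adaptor proteins that link collagen fibrils to proteoglycans, mostly in cartilage. *Matn3* (ENSMUSG00000020583; chromosome 12, 8947929 to 8972028, forward strand) was covered by 3, 1 and 3 reads in control and by 26, 27, 22 and 12 reads in the Sox9-labelled libraries, or 0.0869 to 0.305 CPM and 2.46 to 3.57 CPM. *Matn4* (ENSMUSG00000016995; chromosome 2, 164389393 to 164405160, reverse strand) was at 0.669, 0.608 and 1.42 CPM in control and at 6.18, 4.54, 5.92 and 3.15 CPM in the Sox9-labelled libraries. Both were called higher, with log2 fold changes of 3.56 (standard error 0.55) and 2.47 (standard error 0.44) and adjusted p-values of 0.000632 and 0.0015 with edgeR, and both calls held without any 1 library. Both were lost under cyclic loess with limma-trend, where the log2 fold changes were 1.68 and 1.51 (adjusted p = 0.0261 and 0.0248). The exons of *Matn4* overlap those of *Rbpjl* on the opposite strand, which had 54 counts. *Matn2* was at 2.03 to 5.30 CPM in control and 4.61 to 5.91 CPM in the Sox9-labelled libraries (log2 fold change 0.34, adjusted p = 0.491 with edgeR), and *Matn1* had at most 3 counts in any library.

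Among the fibre-forming proteins, fibrillin 2 (*Fbn2*), the embryonic fibrillin, was at 17.97, 10.4 and 18.7 CPM in control and at 13.5, 11.2, 15.99 and 17.6 CPM in the Sox9-labelled libraries. Its log2 fold change was -0.11 with a standard error of 0.24, and its sign turned with at least 10 counts in every library (0.02) and with cyclic loess (0.0008). *Fbn1*, the main fibrillin of adult microfibrils, was at 3.91 to 5.59 CPM in control and 5.67 to 9.20 CPM in the Sox9-labelled libraries (log2 fold change 0.68, adjusted p = 0.0798 with edgeR). Elastin (*Eln*) was at 0.712 to 1.82 CPM in control and 1.80 to 5.49 CPM in the Sox9-labelled libraries (log2 fold change 1.62, adjusted p = 0.021 with edgeR). Under cyclic loess with limma-trend *Fbn1* was at 0.43 (adjusted p = 0.295) and *Eln* at 0.62 (adjusted p = 0.385). None of the 3 was called by edgeR, at unadjusted p-values of 0.642, 0.0311 and 0.0046.

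Of the fibulins, *Efemp1* (ENSMUSG00000020467; chromosome 11, 28853204 to 28926743, forward strand) was at 1.24, 0.869 and 1.83 CPM in control and at 3.98, 3.50, 4.81 and 4.19 CPM in the Sox9-labelled libraries. It was called higher (log2 fold change 1.65, standard error 0.40, adjusted p = 0.0072 with edgeR). Among the fits without 1 library it was called only without Control 4 (adjusted p = 0.0084), and the other 6 gave adjusted p-values from 0.0104 without Sox9 2 to 0.0344 without Control 2. *Efemp2*, needed to assemble elastic fibres, was at 15.7, 14.1 and 14.7 CPM in control and at 9.48, 8.41, 9.95 and 8.60 CPM in the Sox9-labelled libraries. Its replicates were close together and the groups did not overlap, yet it was not called by edgeR (log2 fold change -0.70, standard error 0.20, adjusted p = 0.0178), whereas DESeq2 called it lower (-0.78, adjusted p = 0.0033). Its exons overlap those of *Mus81* on the opposite strand, with 3673 counts. *Fbln1* was at 3.65 to 4.78 CPM in control and 3.98 to 5.63 CPM in the Sox9-labelled libraries. *Fbln2* had a log2 fold change of -0.39 (adjusted p = 0.618 with edgeR), which was -1.72 under cyclic loess with limma-trend (adjusted p = 0.107). *Fbln5* had at most 11 counts and was not tested.

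All 4 LTBPs had log2 fold changes above 0 with edgeR, although that of *Ltbp4* turned under cyclic loess, and 1 was called. *Ltbp2* (ENSMUSG00000002020; chromosome 12, 84783212 to 84876532, reverse strand), which binds microfibrils and not latent TGF-β, had 3, 2 and 0 counts in control and 15, 20, 15 and 13 counts in the Sox9-labelled libraries. Its log2 fold change of 3.60 had a standard error of 0.66 (adjusted p = 0.0017 with edgeR) and rests on few control counts. It was called higher, also without any 1 library (3.11 without Control 4 to 4.26 without Control 1), but not under cyclic loess with limma-trend (1.505, adjusted p = 0.104). *Ltbp1*, which holds latent TGF-β, was at 6.50, 6.17 and 9.15 CPM in control and at 14.7, 15.0, 9.28 and 22.9 CPM in the Sox9-labelled libraries. The groups were barely apart, between Control 4 and Sox9 3, and it was not called (log2 fold change 1.07, standard error 0.29, adjusted p = 0.013 with edgeR), but was called without Sox9 3 (1.28, adjusted p = 0.0067). *Ltbp3* and *Ltbp4* had log2 fold changes of 0.34 and 0.10, with adjusted p-values of 0.497 and 0.857 from edgeR, and that of *Ltbp4* turned to -0.38 under cyclic loess and to -0.17 without Control 1. *Emilin2* (ENSMUSG00000024053; chromosome 17, 71252172 to 71311978, reverse strand), a glycoprotein of elastic fibres and clots, was at 0.573, 0.434 and 0.407 CPM in control and at 2.88, 1.23, 4.25 and 1.05 CPM in the Sox9-labelled libraries. It lay just inside the threshold (log2 fold change 2.31, standard error 0.59, adjusted p = 0.00999 with edgeR) and was called without Sox9 2 or Sox9 4, while the other 5 fits without a library gave adjusted p-values from 0.0215 without Sox9 1 to 0.0343 without Control 2. *Emilin1* had at most 8 counts.

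*Fras1*, *Frem1* and *Frem2*, which form a complex under epithelial basement membranes, were higher in every Sox9-labelled library than in any control library without being called. Their ranges were 4.87 to 7.17, 2.01 to 3.56 and 1.32 to 2.87 CPM in control and 9.20 to 13.2, 4.58 to 7.42 and 3.21 to 9.23 CPM in the Sox9-labelled libraries. The log2 fold changes were 0.86, 1.15 and 1.29 (adjusted p = 0.018, 0.0227 and 0.0373 with edgeR, unadjusted p = 0.0037, 0.0052 and 0.0107). The 7 members that did not pass the filter were *Thbs2*, *Thbs4*, *Mgp*, *Matn1*, *Fbln5*, *Emilin1* and *Olfml1*, and the last had 0 counts in control and 4, 1, 0 and 0 counts in the Sox9-labelled libraries.

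To compare the mRNAs with each other, CPM were divided by the exonic length of the gene. *Nell2* was the most abundant matrix glycoprotein mRNA in control at 49.99 CPM per kilobase (range 37.6 to 62.6), followed by *Mfge8* at 20.95 (10.6 to 27.7), *Sparcl1* at 16.7 (14.0 to 21.7), *Tnc* at 11.5 (5.36 to 16.7), *Thbs3* at 9.62 (7.57 to 11.0) and *Fn1* at 8.54 (6.04 to 11.7). *Nell2* was above each of the others in every control library, whereas the ranges of neighbours from *Mfge8* to *Fn1* overlapped. In the Sox9-labelled libraries the order was *Nell2* at 50.5 CPM per kilobase, *Sparcl1* at 10.2, *Thbs3* at 5.88, *Fn1* at 5.61 and *Olfml2b* at 5.22, and *Mfge8* and *Tnc* were at 4.02 and 1.73. *Olfml2a*, at 0.0982 CPM per kilobase in control, had a mean of 1.93 in the Sox9-labelled libraries. The lengths are those of all annotated exons, and the isoforms used were not measured.

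**Figure D3:**
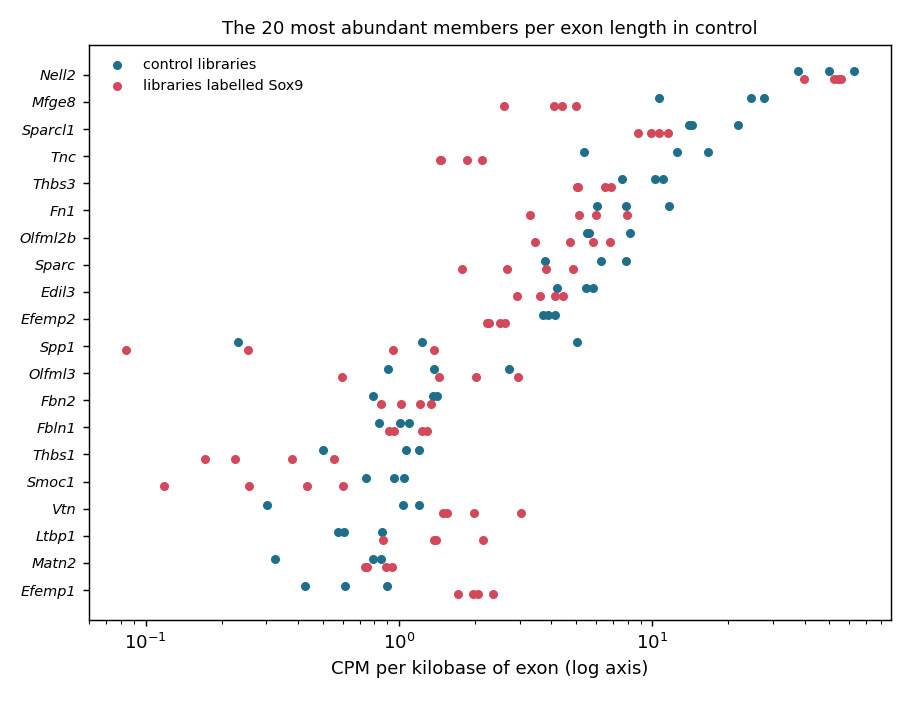
CPM per kilobase of exon on a log axis (x axis) for the 20 matrix glycoproteins with the highest mean in control (y axis, in that order), with 1 point per library, control in blue and Sox9-labelled libraries in red. *Nell2* is at 49.99 in control and 50.5 in the Sox9-labelled libraries, whereas *Mfge8* goes from 20.95 to 4.02 and *Tnc* from 11.5 to 1.73.

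Summed over the 48 genes, matrix glycoprotein mRNA was at 816, 878 and 844 CPM in control and at 664, 626, 717 and 576 CPM in the Sox9-labelled libraries. The sums were lower in each Sox9-labelled library, with means of 846 ± 31.1 (SD, n = 3) and 646 ± 59.5 CPM (SD, n = 4). They depend on the TMM factors, which were 0.893 to 0.941 for control and 1.01 to 1.10 for Sox9-labelled libraries. Such factors raise CPM in control and lower CPM under the Sox9 label, and sums without them were not compared. The 4 members called lower accounted for 283 ± 82.8 CPM in control and 90.7 ± 4.61 CPM in the Sox9-labelled libraries, a difference of -192 CPM out of -200.4 CPM for all 48. The 8 members called higher went from 5.80 ± 1.65 to 38.4 ± 12.6 CPM, a difference of 32.6 CPM. These sums were formed from members chosen by their calls and are given as a description. *Nell2* held 27.6% of the summed reads in control and 36.5% in the Sox9-labelled libraries, *Tnc* 10.6% and 2.08%, and *Mfge8* 11.6% and 2.92%, shares that also depend on transcript length.

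**Figure D4:**
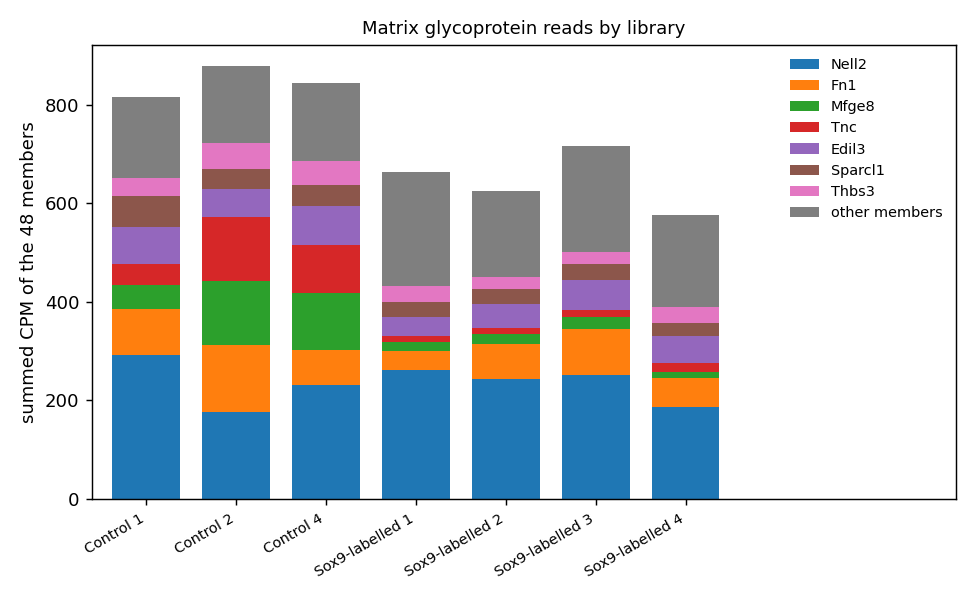
Summed CPM of the 48 matrix glycoproteins (y axis) in each of the 7 libraries (x axis), with the 7 mRNAs holding most reads in control as separate segments and the rest in grey. After TMM scaling, on which the totals depend, the bars reach 816 to 878 CPM in control and 576 to 717 CPM in the Sox9-labelled libraries. The *Tnc* and *Mfge8* segments are the ones that shrink most.

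Receptors, ligands and cross-linking enzymes of these proteins were listed as 32 partner genes, of which 28 were tested. Of these, 6 were called higher and 0 lower, beside 9.96% and 3.88% of all protein-coding genes. All 6 lay among the 18 partner genes below an average of 8 CPM, a band in which 22.1% of all protein-coding genes were called higher. At an unadjusted p under 0.05 with edgeR, 11 were higher and 3 lower. DESeq2 called 8 higher and 0 lower, and cyclic loess with limma-trend called 0 in either direction. The median log2 fold change of the 28 was 0.44.

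The receptors called higher were *Itgb6*, an integrin subunit that activates latent TGF-β (3.82, 2.61 and 2.75 CPM in control and 9.61, 8.88, 12.0 and 6.08 CPM in the Sox9-labelled libraries), *Cd44*, *Cd36* and *Robo3*. Their log2 fold changes were 1.59, 1.72, 3.00 and 1.85, with adjusted p-values of 0.0025, 0.0053, 0.0019 and 0.0077 from edgeR. *Tgfb1*, the ligand held by LTBPs, was at 0.203 to 0.287 CPM in control and 0.839 to 3.71 CPM in the Sox9-labelled libraries (log2 fold change 3.03, adjusted p = 0.0031 with edgeR), and *Loxl1*, a cross-linker of elastin, had a log2 fold change of 2.68 (adjusted p = 0.0035 with edgeR). These 6 were all below 4 CPM in every control library. Fits without 1 library called between 1 and 6 partner genes higher, with 1 without Control 2 or Sox9 3, and 3 without Control 1, which also left 1 called lower. The 2 partner genes with the most reads were not called. *Ptprz1*, a receptor-type phosphatase that binds tenascins, was at 218, 169 and 250.4 CPM in control and at 136, 180.1, 195 and 149.7 CPM in the Sox9-labelled libraries (log2 fold change -0.36, adjusted p = 0.081 with edgeR). *Lrp1*, an endocytic receptor, came next and was at 83.2 to 93.8 CPM in control and 71.9 to 112 CPM in the Sox9-labelled libraries (log2 fold change 0.11, adjusted p = 0.625 with edgeR).

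Markers of cell types moved along with these differences. Of 9 radial glia markers, 5 were called lower (*Pax6*, *Vim*, *Fabp7*, *Slc1a3* and *Prom1*), and their sum was 615 to 1164 CPM in control and 299 to 441 CPM in the Sox9-labelled libraries, a change in the direction of *Tnc* and *Mfge8*. DESeq2 called 7 of them lower and cyclic loess with limma-trend 3, beside the 3.88% of all protein-coding genes called lower by edgeR. Of 5 intermediate progenitor markers, *Eomes* and *Btg2* were called lower, with a sum of 160.0 to 193 CPM and 94.2 to 126 CPM, and cyclic loess with limma-trend called 1. Of 5 astrocyte markers, 3 were tested, *Aldh1l1* was called lower and *S100b* higher, with a sum of 26.2 to 53.0 CPM and 12.95 to 19.9 CPM, and cyclic loess with limma-trend called 1 lower and 0 higher. The astrocyte marker with the most reads, *Gja1*, was not called (log2 fold change -1.18, adjusted p = 0.0189 with edgeR). Of 7 neuronal markers, 0 were called, 3 were lower at an unadjusted p under 0.05 with edgeR, DESeq2 called 1 lower and cyclic loess with limma-trend 0. *Tubb3*, the one with the most reads, was at 6283 to 8027 CPM in control and 6016 to 7460.5 CPM in the Sox9-labelled libraries.

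The summed markers of oligodendrocyte precursors, endothelial, mural and meningeal cells and choroid plexus were higher in every Sox9-labelled library than in any control library, whereas those of microglia and erythroid cells overlapped. Of 5 oligodendrocyte precursor markers, the 4 tested (*Olig1*, *Olig2*, *Pdgfra* and *Cspg4*) were called higher, with a sum of 0.610 to 1.39 CPM in control and 9.50 to 22.8 CPM in the Sox9-labelled libraries. *Flt1* and *Kdr* were called higher of 7 endothelial markers, 6 of them tested (sums of 4.78 to 13.6 and 16.8 to 43.9 CPM). *Myh11* was called of 7 mural markers, all tested (8.22 to 13.7 and 20.9 to 34.7 CPM). *Col1a1* and *Slc6a13* were called of 8 meningeal fibroblast markers, 5 tested (2.52 to 4.98 and 10.6 to 19.2 CPM). *Ttr* and *Folr1* were called of 6 choroid plexus markers, 3 tested (1.24 to 1.56 and 9.17 to 14.1 CPM). *Hba-a2*, which may share reads with its near-identical copy *Hba-a1*, was called of 5 erythroid markers, all tested (1.82 to 24.2 and 12.6 to 90.9 CPM). Beside these, 9.96% of all protein-coding genes tested were called higher, and 22.1% of those below an average of 8 CPM. Under cyclic loess with limma-trend 1 of the 4 oligodendrocyte precursor markers was called higher and 0 markers of the other 6 lists in this paragraph, and DESeq2 called 0 erythroid markers (edgeR gave 5 at an unadjusted p under 0.05). Of these lists, the mural, microglia and erythroid markers with the most reads were not called, with log2 fold changes of 0.97 for *Rgs5*, 0.73 for *Csf1r* and 1.598 for *Hbb-bs*. The 6 microglia markers showed no common direction, with sums of 8.32, 29.6 and 21.3 CPM in control and 50.7, 19.7, 20.01 and 11.7 CPM in the Sox9-labelled libraries, and a median log2 fold change of -0.0034. *C1qa* was called higher (2.84, adjusted p = 0.005 with edgeR), while *Cx3cr1*, *P2ry12* and *Aif1* had log2 fold changes of -0.27, -0.15 and -0.48. No listed marker was at 0 in all 7 libraries. Chemoreceptor genes, which encode receptors for odours, pheromones, tastes and trace amines, summed to 113 to 155 CPM in control and to 342 to 481 CPM in the Sox9-labelled libraries, and of the 99 tested 97 had log2 fold changes above 0 (median 1.70) and 13 were called higher. All 99 lay below an average of 8 CPM, where 77.8% of all protein-coding genes had log2 fold changes above 0, with a median of 1.00, and 22.1% were called higher. TMM factors were 0.893 to 0.941 for control and 1.01 to 1.10 for Sox9-labelled libraries. The part of these marker, chemoreceptor and scaling differences in the results on the matrix glycoproteins was not tested.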

How the data were processed

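RNA-Seq was performed on 3 control libraries and 4 Sox9-labelled libraries, each with its own biological replicate number in the labels. Where nothing else separates them, p-values measure the spread between these sorted samples. Reads were adapter-trimmed and aligned by the authors to mm10 with STAR (2.5.2b per the submitters' processing notes), and the deposited counts per Ensembl gene are raw. The counting program and its use of strand are not given in the sources used here. The authors also deposited FPKM values, which are used here only for the overlap of the groups in *Thbs3* and *Sparcl1*. In each of 9 members checked, the length that links FPKM to counts was nearer to the whole span of the gene than to its exonic length (for *Tnc* 87.0 kb, with a span of 87.2 kb and 7.77 kb of exon, and for *Nell2* 309 kb, with a span of 453 kb and 4.67 kb of exon), so levels between genes were compared by exonic length instead.

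The members and the lists of partner and marker genes were chosen with earlier results of these data known. GENCODE annotation of GRCm38 (mm10) gave gene symbols, biotypes, exons and coordinates. The test was edgeR's quasi-likelihood test (version 4.0.16, R 4.3.3), two-sided and with no covariate, after TMM scaling and filterByExpr. Benjamini-Hochberg adjustment ran over the 16522 genes tested, calls used a threshold of 0.01, and shares of called genes were computed over the 14267 protein-coding genes. Standard errors were obtained as the size of the log2 fold change over the square root of F. All members are named, with values by library for those called and those with a mean of at least 10 CPM, and of the other lists the called genes and the one with the most reads are named. Promoters came from RefSeq tables. Alternatives were DESeq2 1.42.0, its size factors, cyclic loess with limma-trend (limma 3.58.1), other filters, a threshold of 0.05, replicate blocks and leaving out each library. Counted reads ran from 4429704 to 12907778 per library and were mostly fewer in the Sox9-labelled libraries (4429704 to 10520214) than in control (10465562 to 12907778). A member with few reads is correspondingly imprecise. Reads were not tagged with molecular identifiers, so amplified copies are not separated.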

Additional observations from a re-analysis of the deposited data

Results flagged for a closer look

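*Matn3* was at 3.57 CPM in library 1 of those labelled Sox9, apart from the other 3 at 2.46 to 2.55 CPM. The gap made up most of the range of the group (ratio 0.917). Among many groups tested in this way, chance sets apart about 1 in 20. Without this library *Matn3* was still called higher, with a log2 fold change of 3.45 and an adjusted p of 0.0017 from edgeR.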

How the results depend on the processing

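*Tnc*, *Mfge8* and *Npnt* were called in every alternative and in each fit without 1 library, and *Olfml2a* in every one that tested it. The number of members called higher, 8, became 11 with DESeq2, 11 without a filter, 2 with cyclic loess, 2 with at least 10 counts in every library (25 members left), 16 at an adjusted p under 0.05, and 5 to 8 without 1 library. The number called lower, 4, became 6 with DESeq2, 9 without a filter, 2 with at least 10 counts, 9 at an adjusted p under 0.05, and 2 to 3 without 1 library. DESeq2 added *Thbs1*, *Efemp2*, *Ltbp1*, *Nell1* and *Egflam*, and the fit without a filter added *Fn1*, *Thbs1*, *Sparc*, *Spp1*, *Ltbp1*, *Edil3*, *Nell1* and *Egflam*. With the replicate block, the members called were 4 higher and 2 lower by the title numbers, and 5 higher and 2 lower by the description numbers. Libraries with the same number did not deviate together (correlations of -0.05, 0.13 and -0.01 by title, and 0.02 for number 3 of the descriptions), so the numbers do not pair the samples. The median log2 fold change of 0.34 became 0.80 with DESeq2 and 0.78 without a filter (all 48 members), 0.0093 with cyclic loess, and 0.26 to 0.78 without 1 library. Partner genes called higher, 6, became 0 with cyclic loess, 3 with at least 10 counts, 1 with the replicate block by title, 10 at an adjusted p under 0.05, and 1 to 6 without 1 library. Partner genes called lower, 0, became 1 without a filter, 1 at an adjusted p under 0.05, and 0 to 1 without 1 library.

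Signs turned for 7 members that were not called. *Nell2* was at -0.0075 with DESeq2 size factors, -0.064 with DESeq2, -0.069 without a filter, -0.0035 with the replicate block by title, and -0.15 to 0.19 without 1 library. *Olfml3* was at -0.019 with DESeq2, -0.052 with cyclic loess, -0.039 without a filter, -0.11 with the replicate block by description, and -0.32 to 0.59 without 1 library. *Tnr* was at -0.0062 with DESeq2, -0.013 without a filter, and -0.13 to 0.50 without 1 library. *Fbn2* was at 0.025 with at least 10 counts, 0.00080 with cyclic loess, and -0.34 to 0.051 without 1 library. With cyclic loess *Fbln1* was at -0.25, *Ltbp4* at -0.38 (-0.17 to 0.27 without 1 library) and *Comp* at -0.54. The cause of these changes was not tested. Members with few counts in control limit what the depth can show.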
